A study of Mus musculus with 44 samples.

Results

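Immunoglobulin gene segments are the germline building blocks of antibodies, and they were described here through the lung RNA of tumour-bearing and tumour-free mice. Members were all genes whose annotated type is an immunoglobulin constant (C), variable (V), diversity (D) or joining (J) gene in the 2 deposited expression tables of the series. They came to 184 of the 27350 genes in either table, namely 11 C genes, 173 V segments, 0 D segments and 0 J segments, and 164 were listed in both tables. The table of the subcutaneous model held 167 members among 24150 genes, with 74 heavy-chain V segments (IGHV), 79 kappa V segments (IGKV) and 3 lambda V segments (IGLV). The table of the intratracheal model held 181 among 26940, with 84 IGHV, 82 IGKV and 3 IGLV segments and the V segment Gm43218, whose name gives no family. The 11 C genes were the same in both tables. The 7 heavy-chain C genes lie on the minus strand of chr12 (GRCm38, mm10) from Igha (chr12:113254830-113260236) to Ighm (chr12:113418558-113422730), Igkc lies on chr6 (chr6:70726435-70726966, plus strand) and the lambda genes lie on the minus strand of chr16 (Iglc2 at chr16:19198396-19200351). They comprise 7 heavy-chain genes, the kappa gene Igkc and 3 lambda genes.

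A B cell joins 1 V segment to a J segment (with a D segment between them on the heavy chain) and transcribes the result together with a constant gene. Naive B cells make IgM and IgD by splicing the same heavy-chain variable exon to Ighm or Ighd. After activation, class switching replaces them with an IgG, IgA or IgE constant gene, and plasma cells transcribe the immunoglobulin loci at very high levels. IgG binds Fc receptors on myeloid cells, and the polymeric receptor encoded by Pigr carries IgA to mucosal surfaces such as the airway. A population of many B cell clones uses many V segments, whereas a few expanded plasma cell clones can fill the reads with a few segments.

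All 44 libraries came from lung pieces of C57BL6j mice, and the study asks how a Timp2 mutation and recombinant human TIMP2 (rTIMP2), a metalloproteinase inhibitor, act on lung tumours. In the subcutaneous model, genotype wt mice carried Lewis lung carcinoma cells with a luciferase reporter (LL2-Luc) in the flank and received rTIMP2 from day 0 (n = 5), rTIMP2 from day 7 (n = 4) or the vehicle HBSS (n = 5). In the intratracheal model, mutant Timp2 (MT2) mice and wild-type (WT) mice had lungs given LL/2-Luc2 carcinoma cells through the trachea with rTIMP2 (n = 5 per genotype), the same with HBSS (n = 5 per genotype), or tumour-free lungs (n = 5 per genotype). Treatment was daily by intraperitoneal injection at 200 µg per kg. The labels give neither age nor sex, nor what the Timp2 mutation changes. The titles of the tumour-free lungs name no HBSS, and their sample numbers form a series apart from that of the intratracheal tumour lungs. Tumour and any other difference between these sets of lungs cannot be told apart. These are bulk samples, in which fewer B cells and less immunoglobulin RNA per B cell cannot be told apart. The p-values below measure the spread between these samples, which may in part be technical.

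The V exons that carry the main findings on V segment use are shown as pairs, each on its coding strand (5′ to 3′), from GENCODE M21 transcripts on GRCm38 (mm10), which matched the deposited coordinates. Capitals mark the bases that differ from the other member of the pair. At most the first 300 bases are shown, with the coordinates of the bases shown, and differences are counted over the whole V exon. Ighv1-26 (chr12:114788377-114788676, minus strand) and Ighv1-76 (chr12:115847886-115848185, minus strand) were the 2 leading heavy-chain segments of one MT2 tumour library, and they differed at 45 of 305 bases.
Ighv1-26: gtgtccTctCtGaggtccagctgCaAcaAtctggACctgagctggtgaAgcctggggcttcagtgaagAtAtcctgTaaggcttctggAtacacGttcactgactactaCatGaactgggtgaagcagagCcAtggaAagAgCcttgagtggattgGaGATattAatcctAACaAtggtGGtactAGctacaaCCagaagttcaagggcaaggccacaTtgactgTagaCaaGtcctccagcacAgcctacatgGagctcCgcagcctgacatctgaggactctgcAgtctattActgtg
Ighv1-76: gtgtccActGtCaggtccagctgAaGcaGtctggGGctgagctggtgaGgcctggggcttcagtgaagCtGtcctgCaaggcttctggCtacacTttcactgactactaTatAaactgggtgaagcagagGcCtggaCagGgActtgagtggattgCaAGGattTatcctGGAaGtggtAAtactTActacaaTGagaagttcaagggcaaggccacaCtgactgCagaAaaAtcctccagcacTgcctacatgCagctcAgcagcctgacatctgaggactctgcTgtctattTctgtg

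Igkv5-43 (chr6:69823355-69823652, minus strand) and Igkv5-39 (chr6:69900424-69900721, minus strand) were the leading kappa segments of that same library, and they differed at 26 of 298 bases.
Igkv5-43: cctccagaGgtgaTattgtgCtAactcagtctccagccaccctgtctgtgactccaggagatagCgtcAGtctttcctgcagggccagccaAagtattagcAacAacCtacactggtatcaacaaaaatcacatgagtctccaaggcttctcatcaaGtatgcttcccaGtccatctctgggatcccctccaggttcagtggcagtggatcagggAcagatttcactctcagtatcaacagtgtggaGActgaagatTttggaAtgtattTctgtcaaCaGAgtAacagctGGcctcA
Igkv5-39: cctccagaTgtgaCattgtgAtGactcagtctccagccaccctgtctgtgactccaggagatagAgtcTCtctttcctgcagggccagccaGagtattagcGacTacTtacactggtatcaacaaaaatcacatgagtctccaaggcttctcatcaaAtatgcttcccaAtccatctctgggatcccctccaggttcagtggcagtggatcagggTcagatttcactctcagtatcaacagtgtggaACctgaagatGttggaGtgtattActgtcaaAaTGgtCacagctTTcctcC

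Igkv1-117 (chr6:68121515-68121814, plus strand) and Igkv1-110 (chr6:68270955-68271254, plus strand) are shown because both were among the 3 kappa segments of highest mean in each table and both changed between groups. They differed at 10 of 313 bases.
Igkv1-117: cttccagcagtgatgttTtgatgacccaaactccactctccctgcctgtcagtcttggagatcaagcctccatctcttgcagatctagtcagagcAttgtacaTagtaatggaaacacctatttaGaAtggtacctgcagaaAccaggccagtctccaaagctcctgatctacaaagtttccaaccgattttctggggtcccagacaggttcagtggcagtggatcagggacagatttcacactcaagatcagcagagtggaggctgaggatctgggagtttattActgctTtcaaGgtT
Igkv1-110: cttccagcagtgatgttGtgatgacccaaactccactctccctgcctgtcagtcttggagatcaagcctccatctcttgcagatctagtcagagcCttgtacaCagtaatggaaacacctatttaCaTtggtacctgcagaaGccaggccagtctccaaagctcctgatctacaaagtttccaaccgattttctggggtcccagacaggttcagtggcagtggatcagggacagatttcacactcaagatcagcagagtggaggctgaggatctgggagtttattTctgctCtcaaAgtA

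Iglv1 (chr16:19085022-19085321, minus strand) and Iglv2 (chr16:19260406-19260705, minus strand) are shown because Iglv1 was the most abundant lambda segment in every group, and they differed at 9 of 305 bases.
Iglv1: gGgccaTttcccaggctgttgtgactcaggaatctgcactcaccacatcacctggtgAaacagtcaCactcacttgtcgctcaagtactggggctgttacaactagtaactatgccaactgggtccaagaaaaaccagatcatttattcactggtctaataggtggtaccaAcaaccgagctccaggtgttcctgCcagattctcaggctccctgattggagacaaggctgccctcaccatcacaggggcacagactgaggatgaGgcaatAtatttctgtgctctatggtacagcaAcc
Iglv2: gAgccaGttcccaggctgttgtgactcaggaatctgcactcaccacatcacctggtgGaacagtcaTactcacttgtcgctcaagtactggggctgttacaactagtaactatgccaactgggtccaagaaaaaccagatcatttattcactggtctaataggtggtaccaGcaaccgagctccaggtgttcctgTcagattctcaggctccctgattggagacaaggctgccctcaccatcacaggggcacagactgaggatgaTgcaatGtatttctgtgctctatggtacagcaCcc

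The pairs show how close germline segments can be. Of the 173 V segments, 166 had a closest segment of equal V exon length, 82 of them at an identity of 95% or more, and 2 were identical over the V exon. Igkv5-43 differed from its own closest segment, Igkv5-45, at 3 bases, whereas Ighv1-26 differed from Ighv1-18 at 8. The labels do not say how reads that match several segments were counted, so the value of a single V segment is less certain than that of a C gene or of a V family sum.

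Values are the authors' normalized counts. The most frequent value above 0 in a library was 0.857 to 1.12 (subcutaneous) or 0.816 to 1.21 (intratracheal). Taken as 1 read, it gave whole multiples for 78.4 to 80.1% and 74.8 to 81.2% of low values of all genes, within 0.02 of a step and up to 20 steps, and the estimated depth was 14.9 to 19.4 (subcutaneous) and 10.7 to 17.1 (intratracheal) M reads. Many V segments were near that floor: 43 IGHV and 30 IGKV segments of the subcutaneous table, and 27 IGHV and 21 IGKV segments of the intratracheal table, reached 10 in no library. Timp2 was 5948 to 6237 in MT2 and 10147 to 11489 in WT tumour-free lungs, so every MT2 value lay below every WT value. The reporter was 0 in all 10 tumour-free lungs and in WT rTIMP2 replicates 2, 3 and 5, and 0.983 in MT2 rTIMP2 replicate 2, against 47.6 to 70.9 in MT2 HBSS and 39.3 to 69.2 in WT HBSS lungs. Krt13, a keratin of stratified epithelium, stood above 1000 in 5 libraries: HBSS replicate 1 of the subcutaneous model, WT rTIMP2 replicates 2 and 3, and WT HBSS replicates 1 and 4. Values without these libraries are given where they change a call.

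In tumour-free lungs Igkc and Ighm led the constant genes, and no member passed the test between MT2 and WT mice. Per kilobase of exon, mean normalized counts were highest for Igkc (1631 in MT2, 1932 in WT), followed by Ighm (847 in MT2, 892 in WT), the IgM heavy chain. Ighd, the IgD heavy chain, followed with 262 per kb in MT2 and 274 per kb in WT lungs, and Igha, the IgA heavy chain, with 208 per kb in MT2 and 265 per kb in WT lungs, an order of group means that was reversed in single lungs. Lambda genes were lower (Iglc2 162 per kb in MT2 and 178 per kb in WT), and the 4 IgG genes lay between 2.14 and 7.96 per kb. IgG genes together made up 0.669 to 2.29% of the heavy-chain constant sum in MT2 and 0.962 to 2.18% in WT tumour-free lungs.

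Among 24 members tested between MT2 and WT tumour-free lungs (limma on log2 of the value plus 1, Benjamini-Hochberg adjustment over all genes tested, called at an adjusted p under 0.05), 0 were called, and 1 had an unadjusted p under 0.05. Over all genes tested in this comparison, 0.0238% were called. Ighm was 1822, 1847, 2185, 1247 and 886 in MT2 lungs and 1841, 1301, 1754, 1643 and 1868 in WT lungs, so the ranges overlapped (log2 fold change -0.13 ± 0.25 SE). The immunoglobulin sum, meaning all members added up, was 2720 to 6429 in MT2 and 4535 to 5662 in WT lungs.

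**Figure D1:**
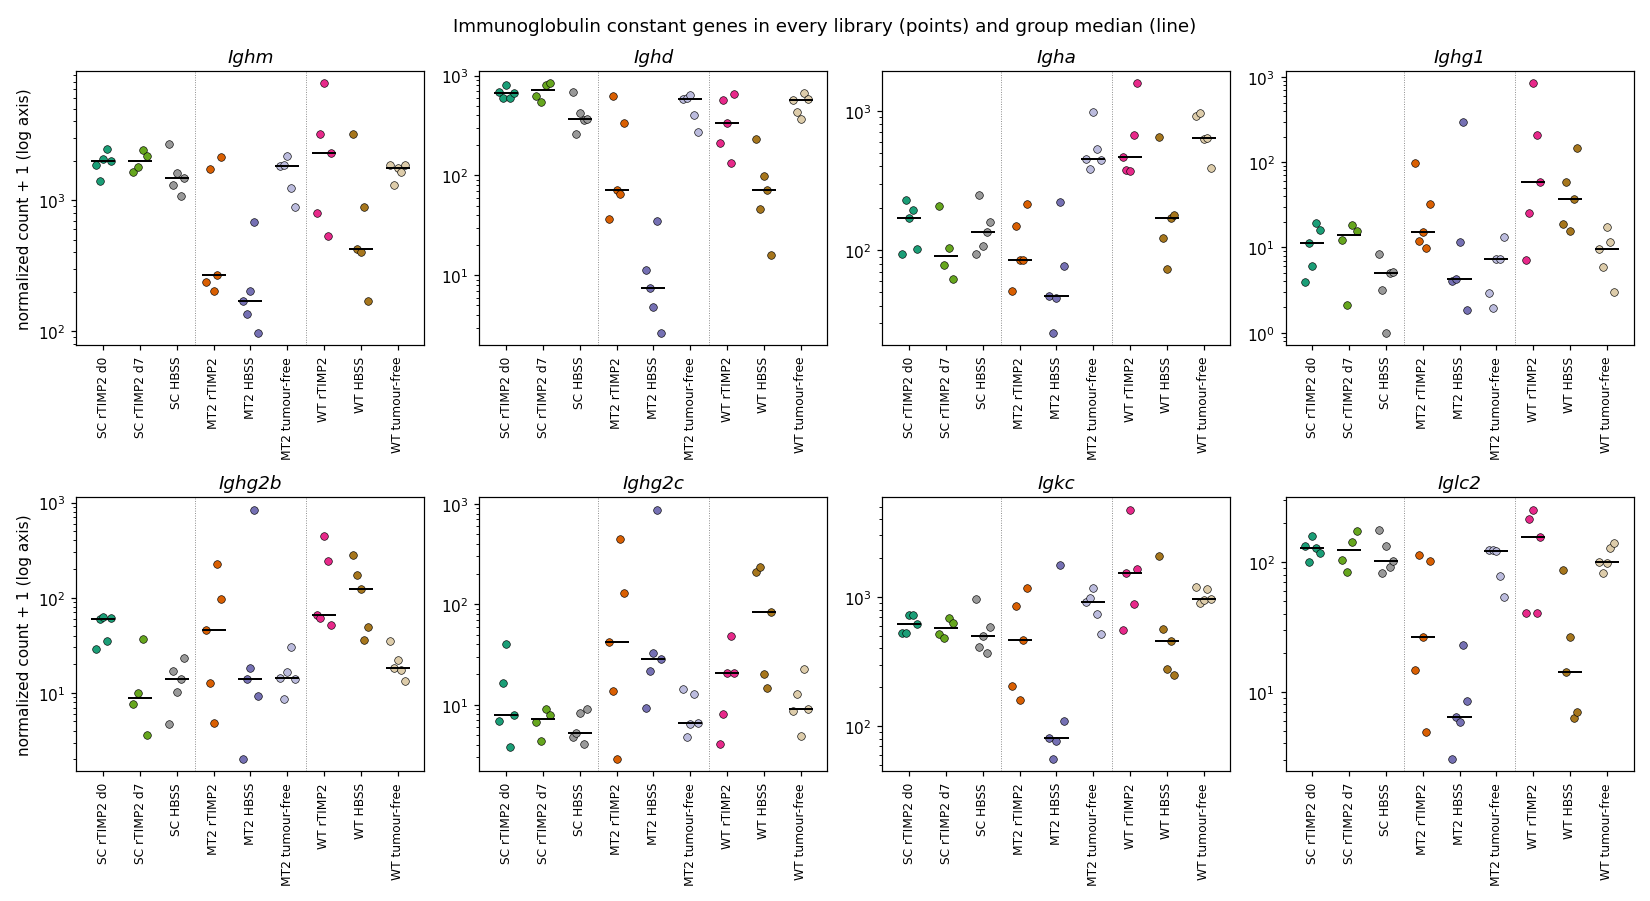
Normalized counts plus 1 (log axis) of 8 constant genes, with 1 point per library and a line at the group median, for the 3 groups of the subcutaneous model and the 6 groups of the intratracheal model. Ighd in MT2 HBSS tumour lungs lies between 1.67 and 34.3, below all MT2 tumour-free lungs, and 1 MT2 HBSS library stands far above its group in Ighg2b, Ighg2c and Igkc.

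Tumour lungs given HBSS held less IgM, IgD, IgA and light-chain RNA than tumour-free lungs in MT2 mice, and in WT mice the IgD, IgA, Iglc2 and Iglc3 genes fell while Ighg1, Ighg2b and Ighg2c rose. In MT2 mice 13 members were tested, of which 0 rose and 11 fell, against 31.5% of all genes called higher, 35.9% called lower and 67.4% called in either direction. In WT mice 20 members were tested, of which 3 rose and 11 fell, against 32.8% of all genes called higher, 37.7% called lower and 70.5% in either direction. The share of members called was thus 84.6% in MT2 and 70% in WT mice, next to backgrounds in which most genes were called. The median log2 fold change of the members tested was -2.97 in MT2 mice, against -0.05 over all genes tested, and -1.60 in WT mice, against -0.07 over all genes tested. Most members passed the filter on low values through the tumour-free lungs. In all tumour-free lungs, 10 of the 13 in MT2 and 15 of the 20 in WT mice stood at 10 or more. These medians are thus not a measure over all members. In MT2 mice 9 members and in WT mice 12 stood at 10 or more in more tumour-free than HBSS libraries. The filter favoured a fall for them.

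Ighd had the largest fall among the members tested in MT2 mice. It was 10.2, 6.45, 3.87, 34.3 and 1.67 in MT2 HBSS lungs, against 577, 597, 640, 398 and 274 in MT2 tumour-free lungs. Every HBSS value lay below every tumour-free value (log2 fold change -5.85 ± 0.58 SE, limma adjusted p = 6.0e-06). In WT mice Ighd was 230.5, 44.8, 97.0, 70.2 and 15.1 in HBSS lungs, against 567, 428, 371, 666 and 576 in tumour-free lungs, again without overlap (log2 -2.97 ± 0.57, limma adjusted p = 0.000804).

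Ighm, the other heavy chain of naive B cells, fell in MT2 mice and missed the threshold in WT mice. It was 170, 134, 201, 678 and 96.8 in MT2 HBSS lungs, against the 886 to 2185 of MT2 tumour-free lungs given above, with no overlap (log2 -2.94 ± 0.46, limma adjusted p = 0.000151). In WT HBSS lungs it was 3187, 423, 403, 880.2 and 168, where replicate 1 lay above all WT tumour-free lungs and the other 4 below them (log2 -1.46 ± 0.62, limma adjusted p = 0.0528). Without that replicate the log2 fold change of Ighm was -2.06 and passed the threshold (limma adjusted p = 0.000482), and without both WT HBSS libraries with high Krt13 it was -2.44 (limma adjusted p = 1.35e-05). The ratio of Ighm to Ighd was 16.6 to 58.0 in MT2 HBSS lungs and 3.09 to 3.41 in MT2 tumour-free lungs, so the ranges were apart. In WT mice the ratio was 4.15 to 13.8 in HBSS and 2.47 to 4.73 in tumour-free lungs, which overlapped. In MT2 HBSS lungs the ratio is imprecise, because Ighd stood as low as 1.67, near the value of 1 read.

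Igha fell in both genotypes. Its values were 46.0, 24.7, 44.5, 223 and 76.8 in MT2 HBSS lungs, against 448, 385, 976, 529 and 441 in MT2 tumour-free lungs, without overlap (log2 -3.07 ± 0.50, limma adjusted p = 0.000204). In WT mice Igha was 644, 122, 72.8, 171 and 179.5 in HBSS lungs, against 919, 962, 625, 641 and 386 in tumour-free lungs, where only HBSS replicate 1 reached into the tumour-free range (log2 -1.91 ± 0.49, limma adjusted p = 0.00511). Pigr, which encodes the receptor that transports IgA and IgM into the airway, fell as well (log2 -4.74 in MT2 and -3.44 in WT mice).

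The IgG genes tested moved the other way in WT mice. Of the 20 members tested, 2 stood at 10 or more in more HBSS than tumour-free libraries, namely Ighg1 and Ighg2c. These 2 passed the filter on low values through the HBSS lungs, so the filter favoured a rise for them. Ighg2b was 282.5, 174, 124, 34.6 and 48.4 in WT HBSS lungs, against 33.7, 17.5, 21.1, 16.6 and 12.2 in WT tumour-free lungs, with every HBSS value the higher (log2 2.34 ± 0.54, limma adjusted p = 0.00242). Ighg2c was 208, 232, 19.4, 13.6 and 82.7 in WT HBSS lungs, against 7.70, 11.6, 3.83, 21.4 and 8.14 in WT tumour-free lungs, where 2 HBSS values fell inside the tumour-free range (log2 2.69 ± 0.80, limma adjusted p = 0.0109). Ighg1 was 17.9, 57.9, 14.6, 35.6 and 145 in WT HBSS lungs, against 8.67, 4.85, 16.3, 10.7 and 2.04 in WT tumour-free lungs (log2 2.28 ± 0.65, limma adjusted p = 0.00851), with 1 HBSS value inside the tumour-free range. Ighg2b and Ighg1 missed the threshold in the fit of all 6 intratracheal groups (limma adjusted p = 0.0608 and 0.0787).

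In MT2 mice no IgG gene passed the threshold. Ighg2c was 8.17, 20.4, 31.9, 876 and 27.5 in MT2 HBSS lungs, against 13.3, 3.81, 5.44, 11.8 and 5.63 in MT2 tumour-free lungs, with 4 HBSS values above all tumour-free ones (log2 2.41 ± 1.00, limma adjusted p = 0.0506). It passed without HBSS replicate 1 (log2 2.98, limma adjusted p = 0.021) and without HBSS replicate 4 (log2 1.33, limma adjusted p = 0.0278). Ighg2b was 1.02, 12.9, 17.4, 843 and 8.35 in MT2 HBSS lungs, against 13.3, 7.62, 15.4, 29.1 and 13.1 in MT2 tumour-free lungs (log2 0.45 ± 1.25, limma adjusted p = 0.766). Only replicate 4 lay above the tumour-free range of Ighg2b, and without it the log2 fold change was -0.88. Ighg1 and Ighg3 reached 10 in too few of these lungs to be tested.

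As a share of the heavy-chain constant sum, IgG genes stood higher in every HBSS tumour lung than in any tumour-free lung of the same genotype. The share was 5.15, 19.8, 19.6, 68.5 and 17.6% in MT2 HBSS lungs, against 0.669 to 2.29% in MT2 tumour-free lungs. It was 12.3, 44.3, 22.7, 8.31 and 43.5% in WT HBSS lungs, against 0.962 to 2.18% in WT tumour-free lungs. A share of a sum also rises where the other genes of the sum fall: the summed IgG values themselves were 12.3 to 2029 in MT2 HBSS lungs and 19.0 to 63.5 in MT2 tumour-free lungs, which overlapped, and 102 to 572 in WT HBSS and 27.5 to 74.2 in WT tumour-free lungs, which did not. The Ighd share was 0.784 to 4.29% in MT2 HBSS lungs and 16.6 to 21.0% in MT2 tumour-free lungs, and 2.35 to 13.1% in WT HBSS lungs and 13.2 to 22.2% in WT tumour-free lungs.

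**Figure D2:**
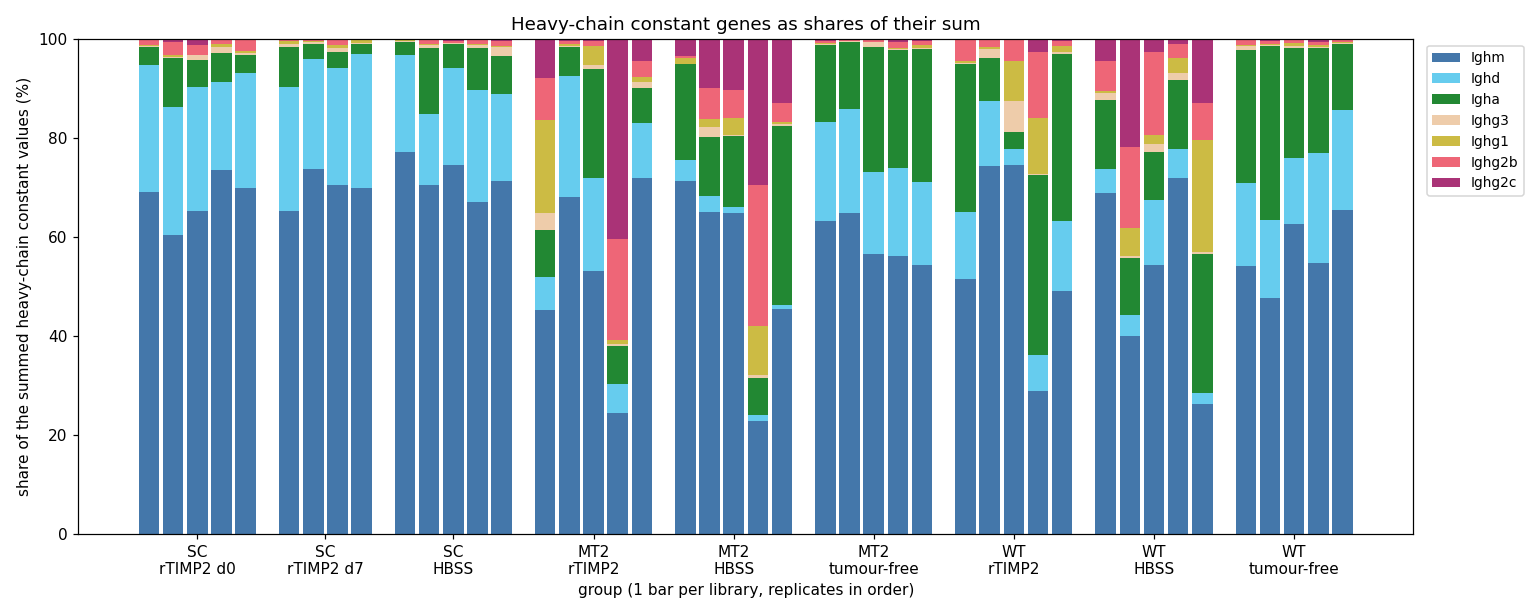
Each heavy-chain constant gene as a percentage of the summed values of the 7 heavy-chain constant genes, with 1 stacked bar per library in replicate order within each group. Tumour-free and subcutaneous-model bars are almost wholly Ighm, Ighd and Igha, and the IgG colours are widest in intratracheal tumour lungs, up to 68.5% in MT2 HBSS replicate 4.

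The light-chain constant genes fell in MT2 mice, and in WT mice Iglc2 and Iglc3 fell while Igkc and Iglc1 missed the threshold. In MT2 mice Igkc was 79.7, 54.8, 75.4, 1773 and 109 in HBSS lungs, against 922, 979, 1179, 743 and 516 in tumour-free lungs, so that 4 of 5 HBSS values lay below and replicate 4 lay above all tumour-free ones (log2 -2.52 ± 0.79, limma adjusted p = 0.0146). Without replicate 4 the log2 fold change was -3.42 (limma adjusted p = 1.76e-06). In WT mice Igkc was 2065, 568, 275, 457 and 247 in HBSS lungs, against 1198, 895, 943, 1145 and 959 in tumour-free lungs (log2 -0.98 ± 0.48, limma adjusted p = 0.0871). HBSS replicate 1 again lay above the WT tumour-free range, and without it the log2 fold change was -1.48 and passed (limma adjusted p = 0.000105), as it did at -1.59 without both WT HBSS libraries with high Krt13 (limma adjusted p = 0.00011). Without these 2 libraries 21 members were called in the WT tumour comparison. The filter then asks for fewer libraries and can admit more members than the 20 tested in the main fit. The 21 thus cannot be set against the calls of the main fit. For the fit without these libraries, the number of members tested and the share of all genes called are not given.

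All 3 lambda constant genes fell in MT2 mice. Iglc2 was 2.04, 5.38, 4.83, 21.9 and 7.51 in MT2 HBSS lungs, against 122, 123, 119.7, 77.3 and 52.5 in MT2 tumour-free lungs, without overlap (log2 -3.68 ± 0.49, limma adjusted p = 4.36e-05). The fall was -3.21 ± 0.47 for Iglc3 (log2, limma adjusted p = 9.03e-05) and -3.03 ± 0.88 for Iglc1 (limma adjusted p = 0.00914), which overlapped through HBSS replicate 4. In WT mice Iglc2 was 86.1, 13.1, 25.5, 5.24 and 6.05 in HBSS lungs, against 99.2, 81.5, 97.7, 128 and 138 in tumour-free lungs, with HBSS replicate 1 inside the tumour-free range (log2 -2.66 ± 0.63, limma adjusted p = 0.00298). Iglc3 fell in WT mice (log2 -1.78 ± 0.58, limma adjusted p = 0.0175) and Iglc1 missed the threshold (log2 -1.32 ± 0.60, limma adjusted p = 0.0699).

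Of the V segments tested, all 4 fell in MT2 mice and 7 of 10 fell in WT mice. Most of them passed the filter on low values through the tumour-free lungs, so a fall was close to fixed for them and these counts say nothing of the V segments that were not tested. Igkv1-110, shown above, was 1.02, 3.23, 2.90, 4.76 and 0.835 in MT2 HBSS lungs, against 28.0, 27.6, 28.1, 29.1 and 13.1 in MT2 tumour-free lungs, without overlap (log2 -2.97 ± 0.40, limma adjusted p = 4.95e-05). In WT mice it was 41.8, 3.28, 2.43, 0 and 0 in HBSS lungs, against 24.1, 32.6, 22.0, 20.5 and 22.8 in tumour-free lungs, with HBSS replicate 1 above them all (log2 -2.79 ± 0.88, limma adjusted p = 0.015). Its near-copy Igkv1-117 fell in MT2 mice (log2 -3.07 ± 0.70, limma adjusted p = 0.0021). Its WT call (log2 -1.43 ± 0.58, limma adjusted p = 0.0449) was lost when any of HBSS replicates 2, 3 and 5 or any of the 5 tumour-free lungs was left out (limma adjusted p up to 0.0859). Iglv1 was 1.02, 6.45, 3.87, 16.2 and 13.4 in MT2 HBSS lungs, against 73.0, 51.4, 81.4, 22.8 and 20.6 in MT2 tumour-free lungs, without overlap (log2 -2.63 ± 0.62, limma adjusted p = 0.00258), and missed the threshold in WT mice (log2 -1.14 ± 0.50, limma adjusted p = 0.0601).

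**Figure D3:**
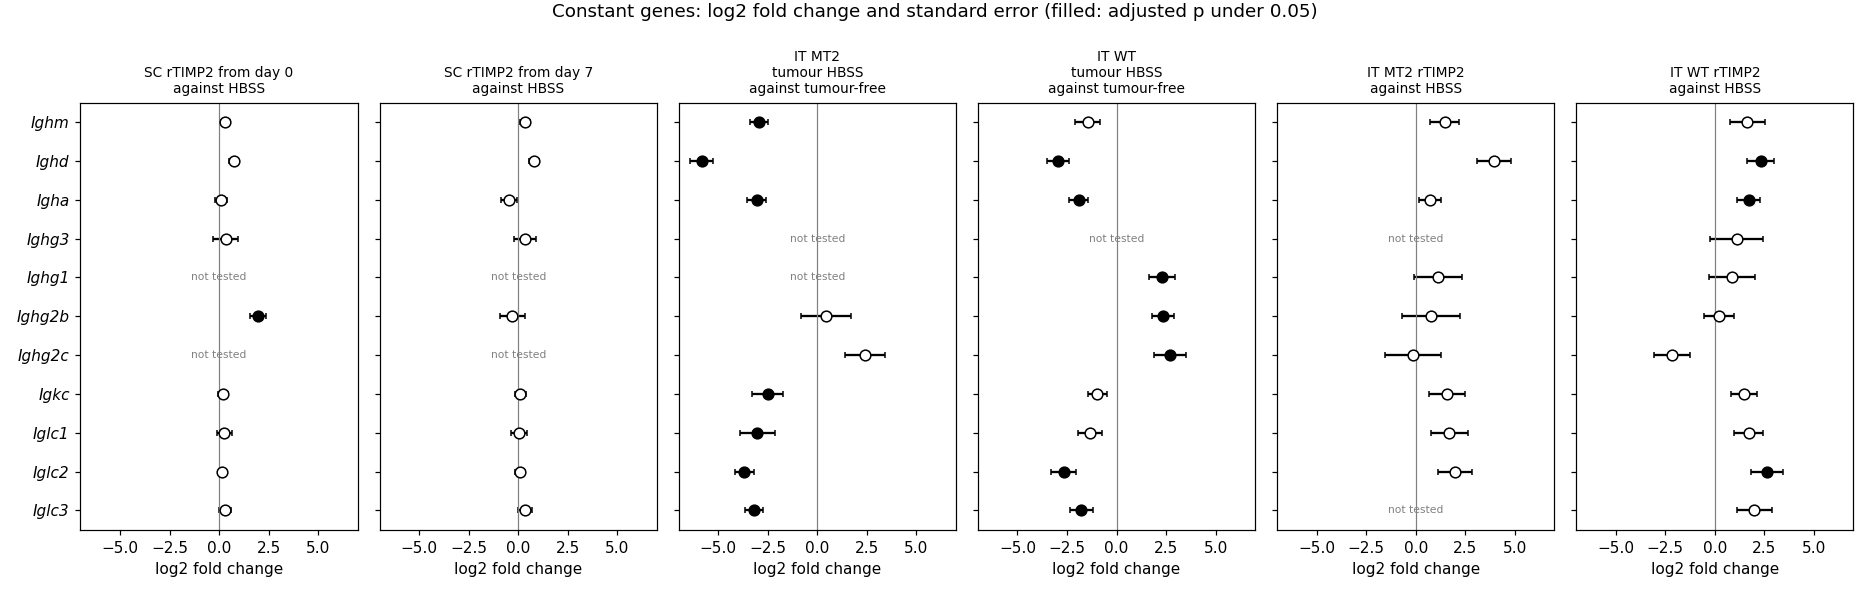
Log2 fold change (horizontal axis) with its standard error for the 11 constant genes in 6 comparisons, filled where the limma adjusted p was under 0.05. The HBSS tumour panels hold filled points left of 0 for Ighd and Igha in both genotypes and right of 0 for Ighg1, Ighg2b and Ighg2c in WT mice, and the only filled point of the subcutaneous panels is Ighg2b with rTIMP2 from day 0.

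Markers of other cells changed in the same lungs, where 67.4% of all genes were called in MT2 and 70.5% in WT mice. Of 15 B cell genes tested, 14 fell in each genotype, among them Ms4a1 (log2 -5.69 in MT2, -2.91 in WT), and their summed level was 487 to 1318 in MT2 HBSS against 2794 to 5207 in MT2 tumour-free lungs and 895 to 2815 in WT HBSS against 3396 to 5153 in WT tumour-free lungs. Of the plasma cell genes, 1 rose and 8 fell of 12 tested in MT2 mice, and 2 rose and 7 fell of 13 tested in WT mice. Counted in either direction, these shares were near those of all genes. Jchain, the joining chain of polymeric IgM and IgA, fell in MT2 mice (log2 -2.18, limma adjusted p = 0.00867) and had log2 -0.67 in WT mice (limma adjusted p = 0.309). All 10 T cell genes and all 8 lung genes fell in both genotypes, and the summed lung genes were 11512 to 250290 in MT2 HBSS against 562347 to 612804 in MT2 tumour-free lungs and 31894 to 280276 in WT HBSS against 582752 to 654443 in WT tumour-free lungs. The levels of lung and T cell genes thus moved with the immunoglobulin genes, and their part in the result was not tested.

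Genes that act on or after antibody production were called in both directions, next to 67.4% of all genes called in MT2 and 70.5% in WT mice. Among Fc receptor and immunoglobulin transport genes, 5 rose and 1 fell of 8 tested in MT2 mice, and 5 rose and 2 fell in WT mice. Fcgr1, the high-affinity IgG receptor of myeloid cells, had log2 1.80 in MT2 and 2.25 in WT mice. Of the switching, hypermutation and germinal centre genes, 5 rose and 2 fell of 8 tested in each genotype, among them Ung, a DNA repair enzyme that also acts in class switching and in dividing cells (log2 2.14 in MT2, 2.44 in WT). Genes of B cell help and attraction fell in 9 of 10 tested in MT2 and 10 of 11 in WT mice, among them Cxcr5 (log2 -4.76 in MT2, -2.44 in WT). Vpreb3, the single pre-B cell gene tested, had log2 -3.82 in MT2 and -2.96 in WT mice.

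MT2 and WT tumour lungs given HBSS were not told apart by the test. Of 9 members tested, 0 were called by limma and 3 had an unadjusted p under 0.05, and over all genes tested 0% were called. Of the 9, 8 stood at 10 or more in all WT lungs and 3 in all MT2 lungs, so the filter favours members that are higher in WT. For Ighd, the MT2 values of 1.67 to 34.3 and the WT values of 15.1 to 230.5 overlapped through MT2 replicate 4 and WT replicate 5 (log2 -2.99 ± 0.78, limma unadjusted p = 0.00234, adjusted p = 0.444). In the fit of all 6 intratracheal groups together its adjusted p was 0.0424. The ratio of Ighm to Ighd was 16.6 to 58.0 in MT2 HBSS lungs and 4.15 to 13.8 in WT HBSS lungs and did not overlap. It rests on few Ighd reads in the MT2 HBSS lungs and was not tested. The interaction of genotype with tumour, which asks whether the tumour difference differs between genotypes, called 0 of 33 members (limma, 6 at an unadjusted p under 0.05, 0.0223% of all genes called), with Ighd at log2 -2.88 ± 0.86 (unadjusted p = 0.00332, adjusted p = 0.258). The smallest p was that of Igkv1-135 (log2 -3.13 ± 0.82, limma unadjusted p = 0.0011, adjusted p = 0.197). A larger fall in MT2 mice was therefore not shown at this threshold.

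In WT tumour lungs, Ighd, Igha, Iglc2, Igkv1-110, Igkv1-117 and Iglv1 were called higher with rTIMP2 than with HBSS, and the calls were fragile. Iglc1 (limma adjusted p = 0.0949) and Iglc3 (limma adjusted p = 0.0983) did not pass. Of 21 members tested, 6 were called higher by limma and 0 lower, a share of 28.6%, against 16% of all genes called higher and 27.3% in either direction. Of the 21 members, 12 stood at 10 or more in more rTIMP2 than HBSS libraries and 2 in more HBSS libraries, so the filter favours members that are higher with rTIMP2. None of the 6 separated the groups.

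Ighd was 210, 569, 337, 131 and 659 in WT rTIMP2 lungs, against the 15.1 to 230.5 of WT HBSS lungs given above, with 2 rTIMP2 values inside the HBSS range (log2 2.31 ± 0.68, limma adjusted p = 0.0399). Igha was 465, 373, 367, 664 and 1572 in WT rTIMP2 lungs, against 72.8 to 644 in WT HBSS lungs, where HBSS replicate 1 overlapped (log2 1.71 ± 0.57, limma adjusted p = 0.0491). Iglc2 was 39.6, 212, 252, 39.2 and 154.5 in WT rTIMP2 lungs, against 5.24 to 86.1 in WT HBSS lungs (log2 2.64 ± 0.81, limma adjusted p = 0.042). Igkv1-110 was 12.2, 82.3, 154, 21.7 and 27.3 in WT rTIMP2 lungs (log2 3.48 ± 1.06, limma adjusted p = 0.0414), and Igkv1-117 was 14.2, 98.8, 130.1, 98.3 and 134.5 there, against 23.6, 10.9, 1.21, 18.9 and 6.05 in WT HBSS lungs (log2 2.97 ± 0.78, limma adjusted p = 0.0398). Iglv1 was 54.8, 146, 369, 22.0 and 69.9 in WT rTIMP2 lungs, against 63.7, 10.9, 12.1, 21.0 and 10.1 in WT HBSS lungs (log2 2.20 ± 0.74, limma adjusted p = 0.0499). In each of these 6 genes HBSS replicate 1 reached into the range of the treated lungs. The HBSS lungs are the same ones that were compared with tumour-free lungs above, so the 2 comparisons share samples.

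The genes that did not pass behaved less evenly. Ighm was 797, 3208, 7784, 529 and 2286 in WT rTIMP2 lungs, against 168 to 3187 in WT HBSS lungs (log2 1.64 ± 0.87, limma adjusted p = 0.153). Ighg2c was 3.04, 7.16, 19.5, 47.3 and 19.8 in WT rTIMP2 lungs, against 13.6 to 232 in WT HBSS lungs (log2 -2.16 ± 0.92, limma adjusted p = 0.0902). Ighg2b had log2 0.21 ± 0.75 (limma adjusted p = 0.828). The IgG share of the heavy-chain constant sum was 5.04, 3.82, 18.8, 27.4 and 3.00% in WT rTIMP2 lungs, which overlapped the 8.31 to 44.3% of WT HBSS lungs.

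Every one of the 6 calls was lost when any of WT rTIMP2 replicates 1, 2, 3 or 5 or WT HBSS replicates 2 to 5 was left out. When WT rTIMP2 replicate 4 or WT HBSS replicate 1 was left out, 14 members were called. With 1 library left out the filter asks for fewer libraries and can admit more members. The 14 thus cannot be set against the 6 of 21 of the main fit. Without the 4 WT libraries with Krt13 above 1000, 0 members were called. The reporter was 0 in WT rTIMP2 replicates 2, 3 and 5, whose immunoglobulin sums were 7667, 19474 and 8121, and it was 23.3 and 67.7 in replicates 1 and 4, whose sums were 2759 and 3599. The part of the amount of tumour in the lung piece in this difference was not tested. Beside it, 11 of 15 B cell genes, 4 of 10 T cell genes and 8 of 8 lung genes were called higher. Of the Fc receptor and transport genes, 5 of 8 were called lower. Over all genes, 16% were called higher and 27.3% in either direction. The summed lung genes were 134380 to 656156 in WT rTIMP2 and 31894 to 280276 in WT HBSS lungs. Plasma cell genes were called higher in 4 and lower in 1 of 13, genes of B cell help higher in 4 of 11, and Vpreb3 was higher (log2 2.73).

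In MT2 tumour lungs, rTIMP2 against HBSS called 0 of 10 members (limma, 2 at an unadjusted p under 0.05), and 0% of all genes. Ighd was 35.3, 622, 70.7, 64.1 and 331 in MT2 rTIMP2 lungs, against 10.2, 6.45, 3.87, 34.3 and 1.67 in MT2 HBSS lungs. Every treated value lay above every HBSS value, 1 of them narrowly (log2 3.96 ± 0.87, limma unadjusted p = 0.000707, adjusted p = 0.274). In the fit of all 6 intratracheal groups its adjusted p was 0.00255. The Ighm to Ighd ratio was 2.78 to 6.72 in MT2 rTIMP2 lungs and 16.6 to 58.0 in MT2 HBSS lungs, and the Ighd share of the heavy-chain constant sum was 5.83 to 24.4% in MT2 rTIMP2 and 0.784 to 4.29% in MT2 HBSS lungs. Neither measure overlapped between these groups, and both rest on few Ighd reads in the MT2 HBSS lungs. Ighm was 237, 1732, 201, 270.01 and 2127 in MT2 rTIMP2 lungs, where replicates 2 and 5 lay above all MT2 HBSS lungs (log2 1.46 ± 0.75, limma adjusted p = 0.538). Replicate 2 is the treated MT2 library with a reporter of 0.983, and the part of the amount of tumour was not tested.

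The interaction of genotype with rTIMP2 called 0 of 28 members (limma, 0 at an unadjusted p under 0.05), and 0% of all genes. Ighd had an interaction of log2 1.65 (limma adjusted p = 0.669). The WT and MT2 treatment comparisons were thus not shown to differ.

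In the subcutaneous model, which has no tumour-free lungs in the table, the lungs of all 3 groups held mostly IgM, IgD and kappa RNA, and a single member was called with rTIMP2. The 2 tables were normalized separately and were not tested against each other. The immunoglobulin sum was 3881 to 5546 with rTIMP2 from day 0, 3837 to 5517 with rTIMP2 from day 7 and 2732 to 6111 with HBSS. IgG genes made up 1.71 to 4.28% of the heavy-chain constant sum from day 0, 0.957 to 2.74% from day 7 and 0.695 to 3.48% with HBSS. The order per kilobase was led by Igkc and Ighm in each of the 3 groups. None of the leading heavy-chain V segments was called. Ighv1-64 was 9.96 to 14.3 from day 0, 6.70 to 17.3 from day 7 and 7.07 to 18.1 with HBSS. Ighv1-82 was 10.4 to 35.7 from day 0, 5.58 to 10.4 from day 7 and 5.10 to 13.1 with HBSS. From day 0 against HBSS, Ighv1-82 had log2 0.93 ± 0.37 (limma unadjusted p = 0.0238, adjusted p = 0.127). Among kappa segments, Igkv10-96 was 18.6 to 43.8 from day 0, 24.6 to 38.9 from day 7 and 16.8 to 36.5 with HBSS. Iglv3, a lambda segment, was 12.4 to 25.05 from day 0, 7.82 to 23.7 from day 7 and 11.1 to 23.6 with HBSS, and the ranges of all 4 segments overlapped between the groups.

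Ighg2b was the single member called in the subcutaneous model. With rTIMP2 from day 0 it was 28.2, 59.0, 62.3, 34.3 and 60.7, against 3.74, 16.0, 9.25, 13.1 and 22.4 with HBSS, and every treated value was the higher (log2 1.96 ± 0.39, limma adjusted p = 0.00783). It was 1 of 32 members tested, with 3 at an unadjusted p under 0.05, against 3.88% of all genes called higher and 8.1% in either direction. Of the 32, 12 stood at 10 or more in more day 0 than HBSS libraries, Ighg2b among them, and 5 in more HBSS libraries. The filter thus favoured members that are higher from day 0. The call held in all 10 fits that left out 1 library (limma adjusted p = 0.00474 to 0.025). Ighd was 689, 599.6, 796, 592 and 663 from day 0, against 683, 261, 420.5, 361 and 368 with HBSS, where HBSS replicate 1 overlapped (log2 0.74 ± 0.22, limma adjusted p = 0.0666). That replicate is the library with high Krt13, and without it Ighd was called (log2 0.93, limma adjusted p = 0.000583). No B cell gene of 15 was called, 2 plasma cell genes were higher and 2 lower, and 2 of 8 lung genes were lower, with summed lung genes of 630206 to 748392 from day 0 and 755943 to 860895 with HBSS.

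The comparisons of day 0 and day 7 share the HBSS lungs. With rTIMP2 from day 7 against HBSS, 0 of 34 members were called (limma, 2 at an unadjusted p under 0.05), against 10.4% of all genes. Ighg2b was 6.64, 8.93, 35.6 and 2.57 from day 7, inside or around the HBSS range (log2 -0.29 ± 0.63, limma adjusted p = 0.802). Ighd was 629, 545, 812 and 835 from day 7 (log2 0.80 ± 0.27, limma adjusted p = 0.101), and it passed without HBSS replicate 1 (limma adjusted p = 0.0109). Day 7 against day 0 called 0 of 43 members (limma, 1 at an unadjusted p under 0.05), against 0.235% of all genes. Ighg2b was lower from day 7 in 3 of 4 libraries than in any day 0 library (log2 -2.25 ± 0.59, limma adjusted p = 0.181), and it was called only without day 7 replicate 3 (limma adjusted p = 0.0114).

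The effective number of V segments was lower in HBSS tumour lungs than in tumour-free lungs, apart from WT HBSS replicate 1. For the lungs with few V reads this number was limited by the reads, so narrower segment use was not shown there. The effective number of segments, the exponential of the Shannon entropy of their values, counts how many equally used segments would give the same evenness. For IGHV it was 9.42, 8.32, 14.7, 16.3 and 6.45 in MT2 HBSS lungs, against 39.4 to 53.5 in MT2 tumour-free lungs. In WT mice it was 45.4, 19.8, 15.8, 29.3 and 9.03 in HBSS lungs, against 36.1 to 48.2 in tumour-free lungs. For IGKV it was 9.30 to 17.2 in MT2 HBSS and 43.8 to 49.2 in MT2 tumour-free lungs, and 13.7 to 39.6 in WT HBSS and 39.4 to 52.3 in WT tumour-free lungs. Both measures were apart in MT2 mice and overlapped in WT mice through HBSS replicate 1. An effective number cannot exceed the number of reads, so the separation in MT2 mice was partly fixed in advance. MT2 HBSS replicate 2, with an estimated 27 IGKV reads, and replicate 1, with fewer, could not have reached the 43.8 of the tumour-free lungs. Replicates 3 and 5 also had IGKV sums below those of all MT2 tumour-free lungs. With rTIMP2 the IGHV number was 21.7, 46.8, 15.4, 5.35 and 25.3 in MT2 lungs and 24.4, 46.1, 45.6, 19.1 and 42.5 in WT lungs.

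Libraries with low V sums also had low effective numbers, and beyond the limit set by the number of reads the part of read depth was not tested. In all 8 libraries with an IGHV sum of 96.4 to 180, the effective number was 46.8 (sum 180), 5.35 (sum 118) and 25.3 (sum 172) in MT2 rTIMP2 replicates 2, 4 and 5, and 16.3 (sum 133) in MT2 HBSS replicate 4. It was 19.8 (sum 108) and 29.3 (sum 96.4) in WT HBSS replicates 2 and 4, against 45.9 (sum 174) and 39.4 (sum 136) in MT2 tumour-free replicates 4 and 5. The other 4 MT2 HBSS lungs had sums between 10.0 and 32.9, below any tumour-free lung, with effective numbers of 6.45 to 14.7. At about 1 normalized count per read, these 4 lungs held too few IGHV reads to reach an effective number of 39.4. Their separation from the MT2 tumour-free lungs was therefore fixed by the low sums. WT HBSS replicate 5 had an effective number of 9.03 at a sum of 22.2, and MT2 rTIMP2 replicate 3 had 15.4 at a sum of 38.6. In MT2 HBSS lungs 34 of 84 IGHV and 28 of 82 IGKV segments were listed at 0 in all 5 libraries, against 1 and 0 in MT2 tumour-free lungs.

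**Figure D4:**
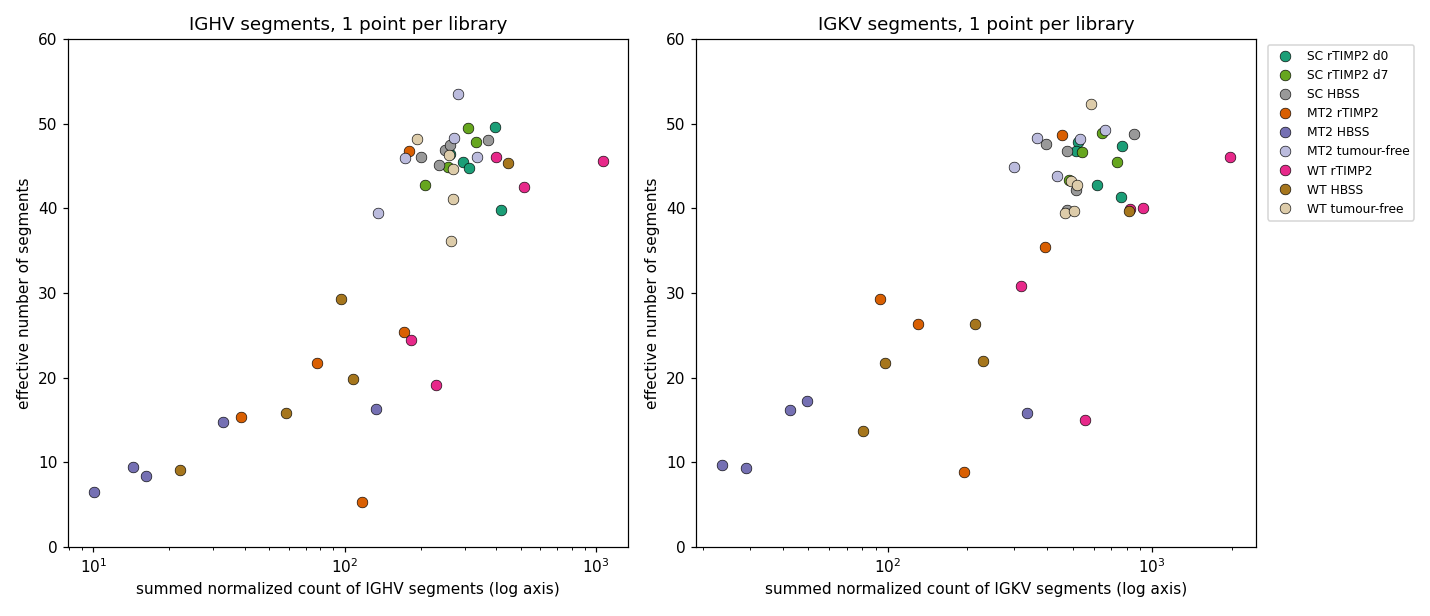
Effective number of IGHV segments (left) and IGKV segments (right) against the summed normalized count of the family (log axis), with 1 point per library coloured by group. Tumour-free and subcutaneous libraries lie at 36.1 or above for both families, and MT2 rTIMP2 replicate 4 is the lowest point for IGHV (5.35) although its sum of 118 is above those of several libraries with higher numbers.

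In MT2 rTIMP2 replicate 4 a pair of heavy-chain and a pair of kappa segments took most of their families. Ighv1-26 had 46.6, or 39.7% of the IGHV sum (95% Wilson interval 31.4 to 48.6% from an estimated 48 of 121 reads). Ighv1-76 had 44.7, or 38.0% (29.9 to 46.9%), and the next segment had 2.91. The 45 differing bases shown above separate the pair. Igkv5-43 had 80.6, or 41.5% of the IGKV sum (34.9 to 48.4% from an estimated 83 of 200 reads), and Igkv5-39, named after its value was seen, had 35.9, or 18.5%. The same library held 444 Ighg2c, the highest value of its group. In MT2 tumour-free lungs, Ighv1-26 was 23.6, 5.71, 26.3, 6.37 and 12.2, Ighv1-76 was 1.82 to 7.62 there, and no IGHV segment took over 13.0% of its family in any tumour-free lung. The intervals cover counting error only.

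Other tumour lungs had other leading segments, some of which were shared between lungs. In WT rTIMP2 replicate 4, Ighv1-12 had 60.4, or 26.1% of IGHV (95% Wilson interval 21.4 to 31.6%), whereas it was 3.44 or less in the other WT rTIMP2 lungs. Igkv1-135 had 190 there, or 34.1% of IGKV (30.7 to 37.8%), and 27.2, or 33.8% (24.3 to 44.6%), in WT HBSS replicate 5. The same segment led IGKV in WT rTIMP2 replicate 1 (20.0%) and WT HBSS replicate 3 (22.4%). Igkv1-135 differs from its closest segment, Igkv1-133, at 11 bases. In MT2 rTIMP2 replicate 5, Ighv14-2 had 44.01, or 25.6% of IGHV (19.6 to 32.7%), and in WT rTIMP2 replicate 5 it had 36.5. Ighv1-15 led IGHV in WT HBSS replicates 3 and 5 with 17.0 and 6.05, or 29.2 and 27.3%, the second of these from an estimated 6 of 22 reads (13.2 to 48.2%). Igkv8-19 had 8.60, or 29.6% of IGKV, in MT2 HBSS replicate 2, from an estimated 8 of 27 reads (15.9 to 48.5%). The intervals of these last shares are wide.

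MT2 HBSS replicate 4, whose IgG genes were far above those of its group, had no IGHV or IGKV segment above 18.5% of its family. Its leading IGHV segments were Ighv1-84 with 20.9 (15.7%) and Ighv1-39 with 20.0 (15.0%), and its leading IGKV segments were Igkv5-39 with 61.8 (18.5%) and Igkv17-121 with 59.0 (17.6%), all 4 named after their values were seen. WT rTIMP2 replicate 3, which had the highest immunoglobulin sum of the series (19474) and a Jchain of 1274, had an IGHV effective number of 45.6. Its most abundant IGHV segment was Ighv7-3 with 102, against 1.63 to 27.6 in the other WT rTIMP2 lungs.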

How the data were processed

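Lung RNA (poly-A) was sequenced from 44 libraries in 9 groups, which the sample titles place. The deposited values are the authors' normalized counts (signal per gene) in 2 tables, 1 per tumour model. Per the submitters' processing notes, the tools include Partek, Bowtie2, STAR and DESeq2 with mm10; the notes give no versions, strand or treatment of reads matching several segments. Dividing by the most frequent value above 0 gave whole reads for only part of the low values (74.8 to 81.2% in the intratracheal table), so no count test was run. Values were analysed as log2(value + 1), which understates changes of low genes. Genes with 10 or more in at least as many libraries as the smaller group were tested with limma 3.58.1 (R 4.3.3; moderated statistics with trend and robust settings), adjusted by Benjamini-Hochberg over all genes tested and called at an adjusted p under 0.05. The 11 comparisons include 2 interactions. The fit was tested on simulated data. Sums, shares and effective numbers over members are descriptions without a test (Python 3.11.15, pandas 2.3.3); Wilson intervals at 95% (SciPy 1.17.1) use estimated reads and cover counting error only. V segments were named if they had the highest means of their family, took over 25% of it in a library, or were among the largest rises in WT mice given rTIMP2; all constant genes were named. Members and gene lists were chosen with earlier results of these data known. Same-numbered replicates deviated together in some pairs and apart in others (r = -0.5463 to 0.5208), so the numbers were not used to pair samples. The alternatives were other pseudocounts (0.5 and 8), no filter or a filter at 50, all groups in 1 fit, rescaling, a replicate block, each library left out and, added after seeing the data, equal library sums and leaving out libraries with Krt13 above 1000.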

Additional observations from a re-analysis of the deposited data

Results flagged for a closer look

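In 30 of 162 combinations of a measure and a group, 1 library stood apart from the others of its group by Dixon's criterion, and 11 libraries account for them. Chance gives about 1 in 20 for normally distributed, independent values, which these need not be, and all 30 were the highest library of their group. MT2 HBSS replicate 4 held Igha at 223 (others at most 76.8), Ighd at 34.3 (others at most 10.2), Ighg1 at 293 (others at most 10.6), Ighg2b at 843 (others at most 17.4), Ighg2c at 876 (others at most 31.9), Ighg3 at 17.1 (others at most 4.3), Ighm at 678 (others at most 201), Igkc at 1773 (others 54.8 to 109) and Iglc2 at 21.9 (others at most 7.51). Its immunoglobulin sum was 5293 (others 326 to 484), and its IgG share was 68.5% (others at most 19.8%).

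WT HBSS replicate 1 held Igha at 644 (others at most 179.5), Ighg3 at 63.7, Ighm at 3187, Igkc at 2065 and Iglc2 at 86.1 (others at most 25.5), with an immunoglobulin sum of 8237 (others 1025 to 2044). It is a library with Krt13 above 1000. WT HBSS replicate 5 had an Igha share of 27.9% (others at most 14.0%), and replicate 3 a lambda share of light-chain constant RNA of 15.0% (others at most 8.61%).

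Among treated lungs, WT rTIMP2 replicate 3, also with Krt13 above 1000, held Ighg1 at 841, Ighg3 at 661, Igkc at 4757 and Iglc1 at 186, and WT rTIMP2 replicate 5 held Igha at 1572. MT2 rTIMP2 replicate 1 held Ighg1 at 98.1, replicate 4 Ighg2c at 444 (others at most 130), and replicate 3 had an Igha share of 22.2% (others 5.83 to 9.51%). MT2 tumour-free replicate 3 held Igha at 976 and Ighg3 at 36.3. In the subcutaneous model, HBSS replicate 5 held Ighg3 at 37.7 (others 4.11 to 12.8). What sets these libraries apart was not tested.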

How the results depend on the processing

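Counts of members called moved as follows, and the number of members tested moved with the filter. With no filter, or with libraries left out, more members could be tested. These counts are therefore not shares that can be set against the main fits, and the shares of all genes are not given for them. With no filter, 2 were called for rTIMP2 from day 0, 109 for tumour in MT2 mice (11 as reported), 43 for tumour in WT mice (14) and 12 for rTIMP2 in WT mice (6). With the filter at 50 the counts were 0, 5, 3 and 2, with fewer members tested. With all groups in 1 fit, day 0 gave 2, day 7 against HBSS 1, MT2 against WT HBSS tumours 1 and rTIMP2 in MT2 mice 1. With the replicate block, day 0 gave 2 and rTIMP2 in WT mice 0. The replicate numbers were not used to pair samples in the main fits. Without the libraries with Krt13 above 1000, day 0 gave 2, day 7 against HBSS 1 and rTIMP2 in WT mice 0. Leaving out 1 library gave 1 to 2 for day 0, 0 to 1 for day 7 against HBSS, 0 to 1 for day 7 against day 0, 11 to 20 for tumour in MT2 mice, 11 to 19 for tumour in WT mice, 0 to 14 for rTIMP2 in WT mice and 0 to 1 for the interaction of genotype with tumour. Ighg2b turned direction for day 7 against HBSS without day 7 replicate 4 (log2 0.20; left-out range -0.92 to 0.20) and for tumour in MT2 mice without HBSS replicate 4 (log2 -0.88; left-out range -0.88 to 1.29). The cause was not tested. Single genes kept their direction and side of the threshold in 701 settings, lost a call in 86 and gained one in 22. Values near 1 stand for about 1 read, which limits single V segments.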
